A study of Mus musculus with 2 samples.

Results

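The 10 genes described here make up the secreted and receptor part of the transforming growth factor beta (TGF-beta) system, followed across the cells of the mouse uterus: the 3 ligands Tgfb1, Tgfb2 and Tgfb3, the 3 receptors Tgfbr1, Tgfbr2 and Tgfbr3, and the 4 latent TGF-beta binding proteins Ltbp1, Ltbp2, Ltbp3 and Ltbp4. They were taken by symbol from the 32285 genes of the deposited tables, and all 10 were found, each with counts in both libraries. The data are single-cell RNA counts from whole uterus in 2 libraries, each made from the pooled uteri of 3 female C57BL/6J mice aged 6 months. The titles mark 1 as Prickle1 f/f, called control-labelled below, and the other as Prickle1 f/f MiC, called cKO-labelled. Both titles carry the f/f allele of Prickle1, a planar cell polarity gene. MiC is not spelled out in the labels, whose genotype entry is wild-type for the 2 libraries alike. The series title states that Prickle1 is lost in the myometrium, the smooth muscle wall of the uterus, and that matrix deposition is changed, so the comparison addresses whether genes of a pathway known for matrix control differ between the libraries. Because each group is 1 library of pooled mice, no difference below has a replicate check and no test was possible. Every interval is 95% and covers counting error only.

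TGF-beta ligands are secreted in a latent form. The mature dimer stays bound to its own propeptide, which is in turn linked to a latent TGF-beta binding protein that anchors it to fibrillin and fibronectin in the matrix. Integrins and proteases release it, and the free ligand brings together the kinase receptors encoded by Tgfbr2 and Tgfbr1, which phosphorylate SMAD proteins that enter the nucleus and switch on genes for matrix and for feedback inhibitors. Tgfbr3 encodes betaglycan, a coreceptor that presents ligands, above all TGF-beta 2, and that can bind them away from the kinase receptors when its outer part is shed. In the uterus the pathway is known for its part in matrix production by stroma and smooth muscle and in fibroids.

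The control-labelled library held 45035801 unique molecular identifiers (UMIs, counts of single captured transcripts) and the cKO-labelled library 34261441. After filtering they gave 3490 and 3586 cells with medians of 4953 and 4903 UMIs, and 6 cell barcodes occurred in both. Prickle1 did not separate the libraries as labelled. In smooth muscle-like cells it had 14 UMIs in the control-labelled library and 51 in the cKO-labelled library, or 14.9 and 24.4 CPM (the class's counts scaled to a fixed total of 1000000 UMIs), a ratio of 1.64 (0.894 to 3.21). It was higher in the cKO-labelled library in fibroblast-like cells too, with 42 and 144 UMIs and a ratio of 2.04 (1.44 to 2.95), and in T or NK cell-like cells, with 7 and 39 UMIs and a ratio of 3.13 (1.38 to 8.29). Whether the labels of the libraries are exchanged was not tested. The tag counted lies at the 3-prime end of the transcript, and whether it falls outside the deleted part is not given in the sources used here, so directions below are given by library label only. The 6 classes named from marker genes that had at least 100 cells in both libraries were smooth muscle-like (312 and 680 cells), fibroblast-like (852 and 1342), epithelium-like (1312 and 110), macrophage or monocyte-like (314 and 228), dendritic cell-like (157 and 208) and T or NK cell-like (346 and 749). No cluster could be named pericyte or vascular endothelium. The smooth muscle-like class held all 8 of its markers in both libraries, with a summed level of 11264 CPM in the control-labelled library and 7050 in the cKO-labelled library.

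The ligands were counted in different cells (the plot of levels by class). Tgfb1 (ENSMUSG00000002603, chr7:25687002-25705077, GRCm38), the ligand best known from platelets and immune cells, was led by lymphatic endothelium-like cells in the control-labelled library, with 631 CPM (560 to 708) against 400 (367 to 435) in the cKO-labelled one. T or NK cell-like cells had 380 CPM (352 to 409) and 488 (465 to 513), and so stood above the lymphatic class in the cKO-labelled library. The lymphatic class held only 31 cells in the control-labelled library and 102 in the cKO-labelled library. With each cell thinned to the same number of UMIs, it had 323 and 363 CPM of Tgfb1. T or NK cell-like cells then had 402 and 433 CPM, so the lymphatic class no longer led in the control-labelled library. Without thinning, macrophage or monocyte-like cells had 277 (258 to 297) and 349 (321 to 378). Among T or NK cell-like cells the level was highest in cluster 12, led by genes of cytotoxic cells such as Gzma and Prf1, with 609 and 739 CPM. Dendritic cell-like cells came next with 141 and 186 CPM, and the interval met that of the mast cell-like cells (139 and 169 CPM) in both libraries. Fibroblast-like cells had 48.0 and 75.1 CPM and smooth muscle-like cells 40.3 and 21.0. The values in both of these classes lay below the level in empty droplets, 70.2 and 120 CPM, which is RNA free in the suspension. Granulocyte-like cells had 474 CPM (330 to 659) in the cKO-labelled library, from 30 cells, and were too few in the control-labelled library.

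Tgfb2 (ENSMUSG00000039239, chr1:186622792-186705989) showed the opposite distribution. Fibroblast-like cells had 296 CPM (286 to 308) in the control-labelled library and 203 (196 to 210) in the cKO-labelled library. Smooth muscle-like cells had 213 (185 to 245) and 178 (160 to 197), and mesothelium-like cells 112 (91.7 to 136) and 71.4 (51.0 to 97.3). These 3 classes stood above every other class in both libraries, although in the cKO-labelled library the interval of the mesothelium-like cells met that of the lymphatic endothelium-like cells (57.9 CPM, 45.9 to 72.1). Immune classes were low, T or NK cell-like cells being at 7.11 and 5.23 CPM and macrophage or monocyte-like cells at 28.5 and 14.8. Of all Tgfb2 UMIs in cells, 79.7% and 84.0% lay in fibroblast-like cells, against 14.7% and 26.6% of those of Tgfb1 (the plot of UMIs by class).

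Because these 2 ligands were counted in different classes, the 250 bases before their start sites are shown, from RefSeq on GRCm38.p6, read 5′ to 3′ on the gene's strand. Capitals mark the GC box GGGCGG in Tgfb1 (plus strand, chr7:25686752-25687001) and the TATA box TATAAA and the E-box CACGTG in Tgfb2 (minus strand, chr1:186705990-186706239), each searched on both strands.
Tgfb1: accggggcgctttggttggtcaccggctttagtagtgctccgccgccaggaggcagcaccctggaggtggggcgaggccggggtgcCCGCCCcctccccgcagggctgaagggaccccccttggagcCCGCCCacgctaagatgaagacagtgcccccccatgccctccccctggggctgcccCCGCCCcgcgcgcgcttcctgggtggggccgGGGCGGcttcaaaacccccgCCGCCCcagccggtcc
Tgfb2: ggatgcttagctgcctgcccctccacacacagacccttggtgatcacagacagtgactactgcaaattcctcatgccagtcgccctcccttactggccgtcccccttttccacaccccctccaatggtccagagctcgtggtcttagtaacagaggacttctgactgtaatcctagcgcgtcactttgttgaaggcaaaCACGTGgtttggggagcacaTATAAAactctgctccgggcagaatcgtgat
The Tgfb1 window held 5 GC boxes, no TATAAA and no CACGTG, and 75.2% of its bases were G or C. The Tgfb2 window held 1 TATAAA, starting 31 bases before the start site, 1 CACGTG and no GC box, and 53.6% of its bases were G or C, where the median over all promoters was 52.4%. Of the 32851 promoter windows in the table, 32.7% hold GGGCGG, 12.4% TATAAA and 6.02% CACGTG. Promoters of 8 of the 10 genes were matched, and Tgfb3 and Tgfbr3 had no entry. Among the 8, TATAAA and CACGTG were found in Tgfb2 alone, while GGGCGG was found in Tgfb1, Tgfbr1, Ltbp2 and Ltbp4. The marked matches do not overlap, and they describe these letters only.

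Tgfb3 (ENSMUSG00000021253, chr12:86056745-86079041) was near the limit of detection. It had 295 UMIs in all cells of the control-labelled library and 231 in those of the cKO-labelled library. Its highest level was in mesothelium-like cells, the lining of the outer surface, with 24 and 14 UMIs and intervals of 16.4 to 38.1 and 13.7 to 42.0 CPM. In each of the other classes of both libraries it had at most 10.4 CPM, and the empty droplets had 6.98 and 6.00 CPM.

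**Figure D1:**
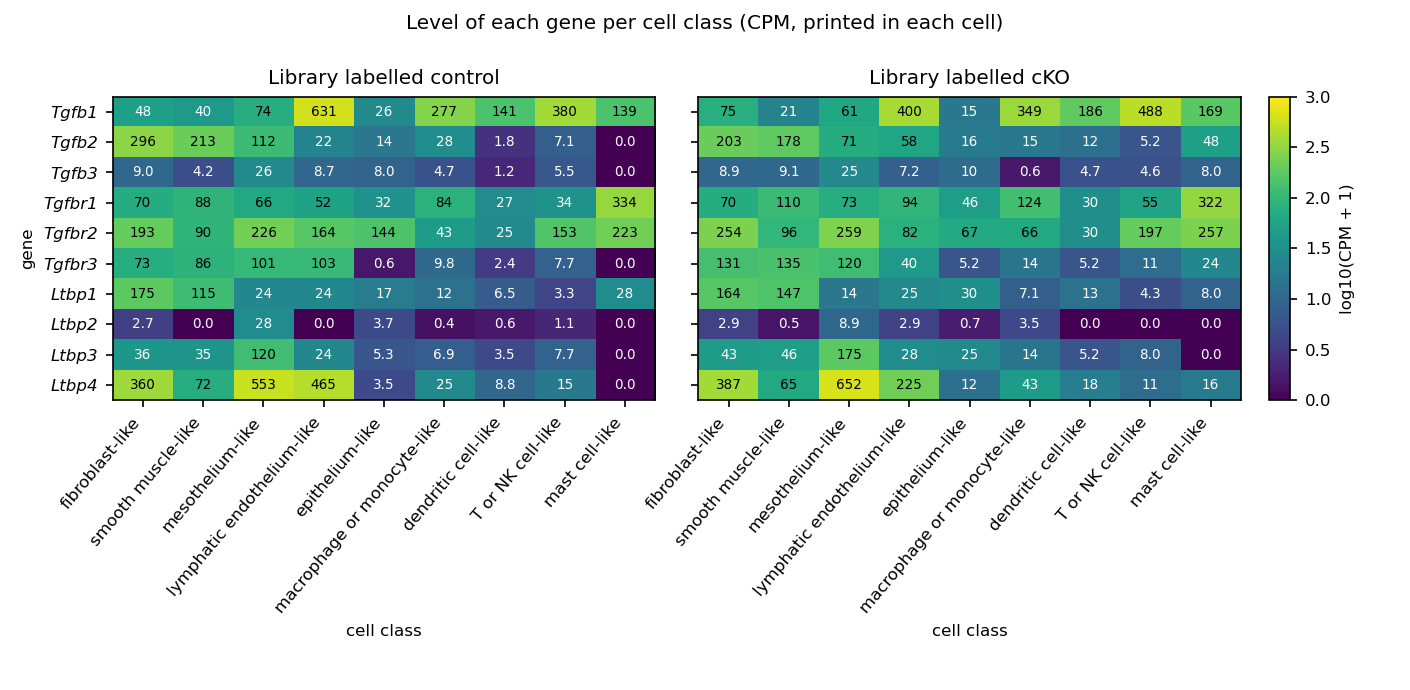
Levels of the 10 genes (rows) in 9 cell classes (columns) in the control-labelled library (left) and the cKO-labelled library (right). The number in each cell is CPM and the colour its log10 after adding 1. Tgfb1 is high in the lymphatic endothelium-like and immune columns, and Tgfb2, Tgfbr3 and Ltbp1 in the fibroblast-like and smooth muscle-like columns.

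Of the receptors, Tgfbr1 (ENSMUSG00000007613, chr4:47353222-47414931), the signalling kinase, was spread over all classes. It lay between 27.1 and 88.1 CPM in 8 classes of the control-labelled library. Mast cell-like cells stood above these with 334 CPM (214 to 497) and 322 (230 to 438), though from only 24 and 40 UMIs, and granulocyte-like cells had 352 CPM (230 to 516) in the cKO-labelled library. Fibroblast-like cells had 70.3 and 70.4 CPM.

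Tgfbr2 (ENSMUSG00000032440, chr9:116084293-116175360), which binds the ligand first, had 226 CPM (197 to 259) and 259 (219 to 305) in mesothelium-like cells and 193 (184 to 202) and 254 (246 to 262) in fibroblast-like cells. Mast cell-like cells had similar levels, 223 and 257 CPM, from 16 and 32 UMIs. T or NK cell-like cells had 153 and 197 CPM, and smooth muscle-like cells 90.2 (72.1 to 112) and 96.0 (83.2 to 110). The last values overlapped the empty-droplet level of 93.1 and 111 CPM. The cells that held its UMIs differed between the libraries: epithelium-like cells held 2725 of the 5448 in the control-labelled library and 90 of the 5607 in the cKO-labelled library, where fibroblast-like cells held 73.0%. Epithelium-like cells made up 37.6% of the cells of the first library and 3.07% of the second, so that share also follows the number of cells captured.

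Tgfbr3 (ENSMUSG00000029287, chr5:107106570-107289629), the coreceptor, was counted mostly in stromal, muscle, lining and lymphatic endothelium-like cells. Smooth muscle-like cells had 86.0 CPM (68.3 to 107) and 135 (120 to 152), fibroblast-like cells 72.6 (67.3 to 78.2) and 131 (125 to 136), and mesothelium-like cells 101 (82.1 to 124) and 120 (92.7 to 152). Lymphatic endothelium-like cells had 103 and 39.8 CPM, from 31 and 102 cells. With each cell thinned to the same number of UMIs, that class had 64.5 and 78.4 CPM, so the direction was not kept. Without thinning, Tgfbr3 had 0.582 and 5.19 CPM in epithelium-like cells, the lowest mean of any class for this gene. As with Tgfb2, most of its UMIs lay in fibroblast-like cells, 70.2% and 80.1%.

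Among the latency proteins, Ltbp4 (ENSMUSG00000040488, chr7:27305136-27337692), which binds the TGF-beta 1 complex and supports elastic fibres, had 553 CPM (506 to 603) and 652 (587 to 722) in mesothelium-like cells. Fibroblast-like cells had 360 (348 to 372) and 387 (377 to 397), lymphatic endothelium-like cells 465 (405 to 532) and 225 (200 to 251), and smooth muscle-like cells 72.2 and 65.0 CPM. The smooth muscle-like values lay near the empty-droplet level of 59.3 and 93.2 CPM. The lymphatic values came from 31 and 102 cells. With each cell thinned to the same number of UMIs, that class had 323 and 245 CPM of Ltbp4. Fibroblast-like cells then had 369 and 373 CPM. Ltbp1 (ENSMUSG00000001870, chr17:75005568-75392512), which anchors latent complexes to fibrillin and fibronectin, was shared by fibroblast-like cells (175 and 164 CPM) and smooth muscle-like cells (115 and 147 CPM). No other class exceeded 30.4 CPM of Ltbp1 in either library. Ltbp3 (ENSMUSG00000024940, chr19:5740904-5758532), a partner of latent TGF-beta in bone and vessels, had its highest level in mesothelium-like cells, with 120 CPM (98.4 to 144) and 175 (142 to 213), apart from the next class, smooth muscle-like cells at 35.0 and 45.9, in both libraries. Ltbp2 (ENSMUSG00000002020, chr12:84783212-84876532), which does not bind latent TGF-beta and takes part in microfibrils, had 126 and 64 UMIs in all cells. It reached 27.8 CPM (18.1 to 40.7) and 8.93 (2.90 to 20.8) in mesothelium-like cells. Smooth muscle-like cells had 0 and 1 UMI, and the interval of the count of 0 reached up to 3.92 CPM. Levels are tag counts and are not compared between genes.

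**Figure D2:**
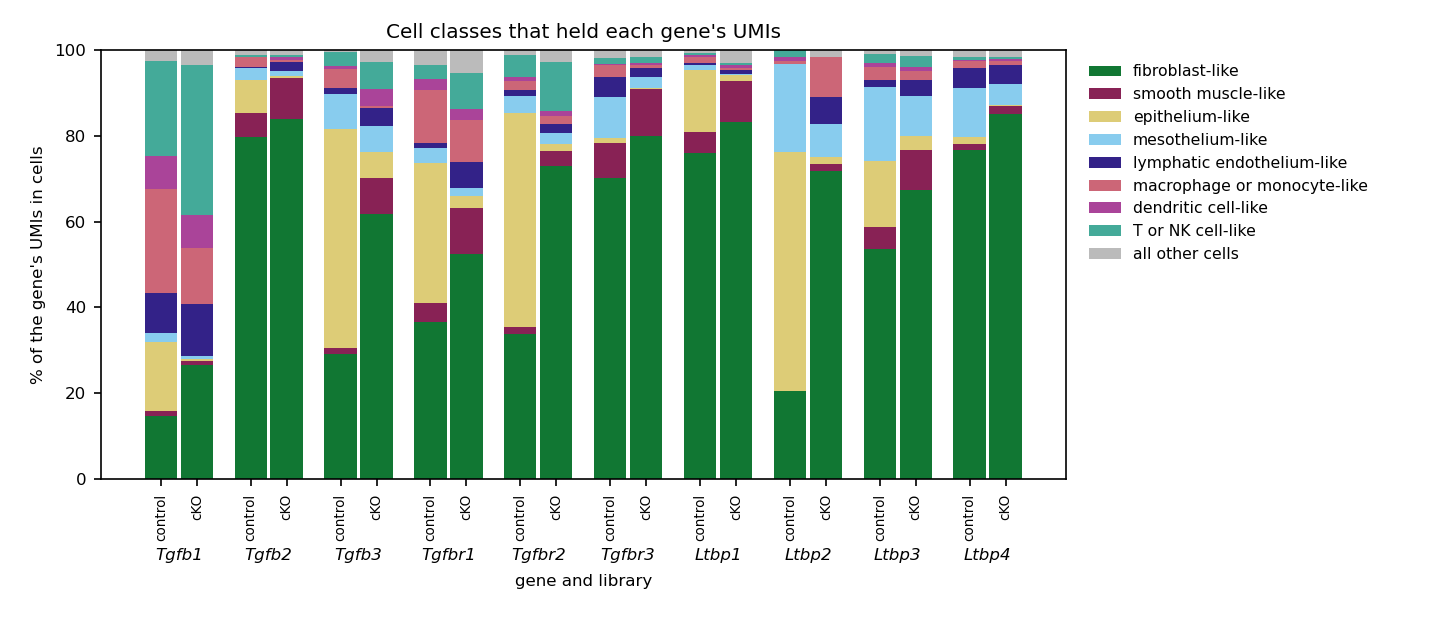
Share of each gene's UMIs in cells (vertical axis, percent) held by each cell class, with 1 bar for the control-labelled library and 1 for the cKO-labelled library per gene. Fibroblast-like cells (green) hold 79.7% and 84.0% of Tgfb2 and 76.7% and 85.2% of Ltbp4, and the epithelium-like part (yellow) is smaller in the cKO-labelled library for all 10 genes, as from 32.8% to 2.87% for Tgfbr1.

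The libraries were then compared within each class, on the log2 scale after adding 5 CPM to both levels, with genes that reached 10 CPM in either library. A gene is called past the fold if it differed by 1.5-fold or more on that scale. In fibroblast-like cells 8 of the 10 genes reached 10 CPM, 2 were past the fold upwards in the cKO-labelled library (Tgfb1 and Tgfbr3) and none downwards, where 8.39% of all 8142 genes were past the fold (5.49% higher and 2.90% lower). The median log2 ratio of the 8 was 0.17 and that of all genes 0.10.

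Betaglycan (Tgfbr3) had the largest ratio of the 8 in fibroblast-like cells, with 696 UMIs against 2107, 72.6 against 131 CPM, a log2 ratio of 0.81 and a ratio of 1.80 (1.65 to 1.97). It was higher in the cKO-labelled library in all 4 fibroblast-like clusters with at least 20 cells in both libraries, by log2 ratios from 0.84 to 2.60, the highest in the shallow cluster 11 with 14 and 24 UMIs. Its smooth muscle-like counts were 81 and 283 UMIs, with a log2 ratio of 0.62 and a ratio of 1.57 (1.22 to 2.04). It was higher in 2 of 2 clusters there, but past the fold only in the shallow cluster 2 (15 and 40 UMIs, 0.85). In cluster 15 (58 and 188 UMIs) the log2 ratio was 0.34 and the ratio 1.27 (0.945 to 1.74). The makeup of the class differed as well. Cluster 2, with 39.2 and 74.5 CPM, held 40.6% of the class's UMIs in the control-labelled library and 25.7% in the other. Cluster 23 held 10.2% and 18.0%, and had 146 CPM in the cKO-labelled library. The part of this makeup in the class ratio was not tested. Betaglycan RNA was also higher in the empty droplets of the cKO-labelled library, at 54.5 CPM against 10.9. With 10% of the empty-droplet profile subtracted it stayed past the fold in fibroblast-like cells.

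Tgfb2, the ligand betaglycan presents, lay the other way in fibroblast-like cells. It had 2843 UMIs in the control-labelled library and 3273 in the cKO-labelled library, 296 against 203 CPM, a log2 ratio of -0.53 and a ratio of 0.685 (0.651 to 0.721). That is inside the fold. It was lower in 4 of 4 clusters, with log2 ratios from -0.88 to -0.06, the smallest difference being in cluster 6 (371 and 354 CPM), led by Frzb and Nog. The fibroblast-like clusters found almost only in the cKO-labelled library had 173 CPM (cluster 24, led by Aldh1a2 and Scube1, 223 cells) and an interval of 72.4 to 123 CPM (cluster 22, 122 cells).

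Tgfb1 was higher in fibroblast-like cells of the cKO-labelled library, with 460 and 1210 UMIs, 48.0 and 75.1 CPM, a log2 ratio of 0.60 and a ratio of 1.57 (1.40 to 1.75). The difference was uneven among clusters: 55.3 and 92.8 CPM in cluster 5, led by the inflammatory genes Il6, Ptx3 and Cxcl5, 45.9 and 54.5 in cluster 6, 43.3 and 59.8 in cluster 7 (a ratio of 1.38, 1.08 to 1.76), and 54.5 and 39.8 in cluster 11, where only 28 and 5 UMIs were counted. Cluster 5 held 17.6% of the fibroblast-like cells in the control-labelled library and 32.0% in the other. The mean of the log2 ratios within clusters was 0.23. Both levels were under those of the empty droplets, 70.2 and 120 CPM, which also differed. With 10% of the empty-droplet profile subtracted the log2 ratio was 0.58, just inside the fold, and with the median of ratios it was 0.50.

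In the class sums the signalling receptors of fibroblast-like cells differed less. Tgfbr2 had a log2 ratio of 0.39 (1847 and 4095 UMIs), inside the fold. Within clusters Tgfbr2 was above 0 in 4 of 4 (0.08 to 0.70) and past the fold in clusters 5 (0.70) and 6 (0.63). Tgfbr1 had a log2 ratio of 0.001 and a ratio of 1.00 (0.909 to 1.10) in the class. Within clusters Tgfbr1 was above 0 in 4 of 4, from 0.14 to 0.47. Cluster 24, found almost only in the cKO-labelled library, had 44.2 CPM of Tgfbr1. Of the latency proteins in these cells Ltbp1 had -0.09, Ltbp3 0.23 and Ltbp4 0.10, all inside the fold. Ltbp2 and Tgfb3 were under 10 CPM. The ratio plot shows Tgfb1 and Tgfbr3 to the right of the 1.5-fold line and Tgfb2 alone close to the line on the left.

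**Figure D3:**
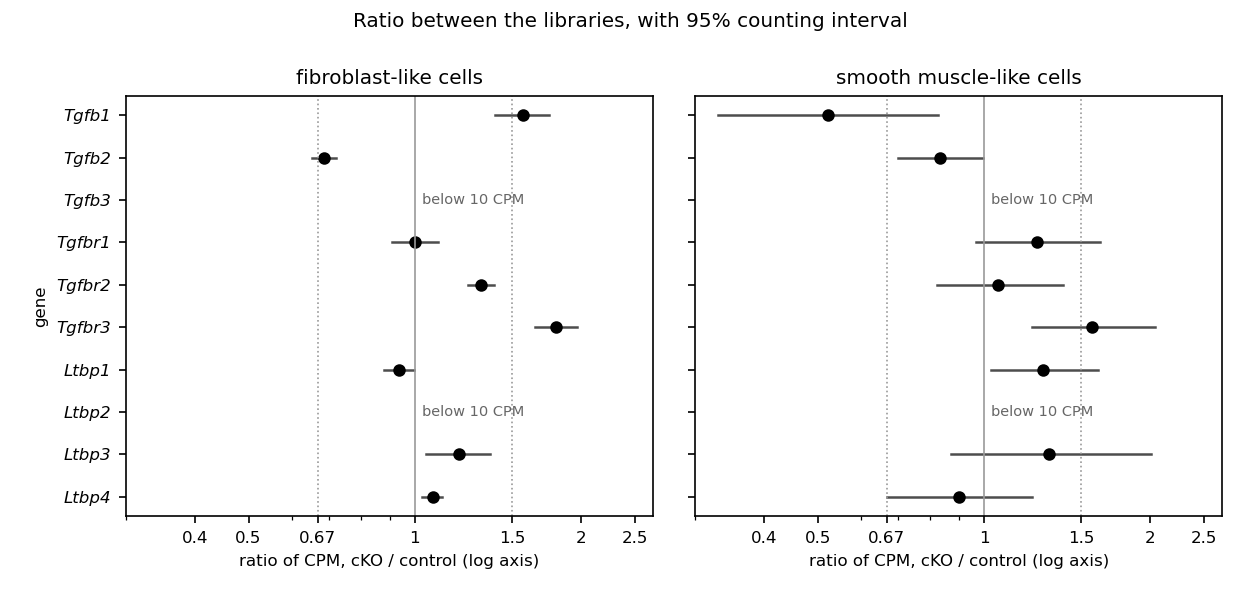
Ratio of CPM between the libraries (horizontal log axis, cKO-labelled library over control-labelled library) for each gene in fibroblast-like (left) and smooth muscle-like cells (right). Points are ratios, lines are 95% counting intervals and dotted lines mark 1.5-fold in each direction. Tgfbr3 lies at 1.80 and 1.57, while Tgfb1 lies at 1.57 on the left and 0.521 on the right.

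In smooth muscle-like cells, the class the series title is about, 8 genes reached 10 CPM, with Tgfbr3 past the fold upwards and Tgfb1 downwards, where 27.4% of all 8718 genes were past the fold (19.1% higher and 8.35% lower). The median log2 ratio of the 8 was 0.19 and that of all genes 0.21, a shift that scaling by the median of ratios brings to 0.002. With that scaling Tgfbr3 was at 0.42 and no longer past the fold, and when cells were thinned to 1000 UMIs it was at 0.53. Relative to that shift Tgfb2, at -0.26 (201 and 372 UMIs), and Ltbp4, at -0.14, were on the lower side, and Tgfbr1 at 0.30, Ltbp1 at 0.35 and Ltbp3 at 0.35 were close to it. Tgfb1 had 38 and 44 UMIs, 40.3 and 21.0 CPM, a log2 ratio of -0.80 and a ratio of 0.521 (0.330 to 0.826), lower in 2 of 2 clusters. As in fibroblast-like cells, both levels were under those of the empty droplets. With 10% of that profile subtracted the log2 ratio was -1.48.

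Tgfb2 differed between the smooth muscle-like clusters. In cluster 15, whose leading genes included Myh11 and Smtn, it had 183 and 294 UMIs, 394 and 249 CPM, a log2 ratio of -0.65 and a ratio of 0.632 (0.524 to 0.764). In cluster 2, at 0.284 of the median depth and led by Actg2 and Pcp4, it had 7 and 47 UMIs, 18.3 and 87.5 CPM, a log2 ratio of 1.99 and a ratio of 4.78 (2.15 to 12.5). The class ratio of Tgfb2 therefore combines opposite directions, and the mean within clusters was 0.67. Fibroblast markers summed to 651 and 445 CPM in smooth muscle-like cells and erythroid markers to 36.1 and 620. Their part in these ratios was not tested.

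**Figure D4:**
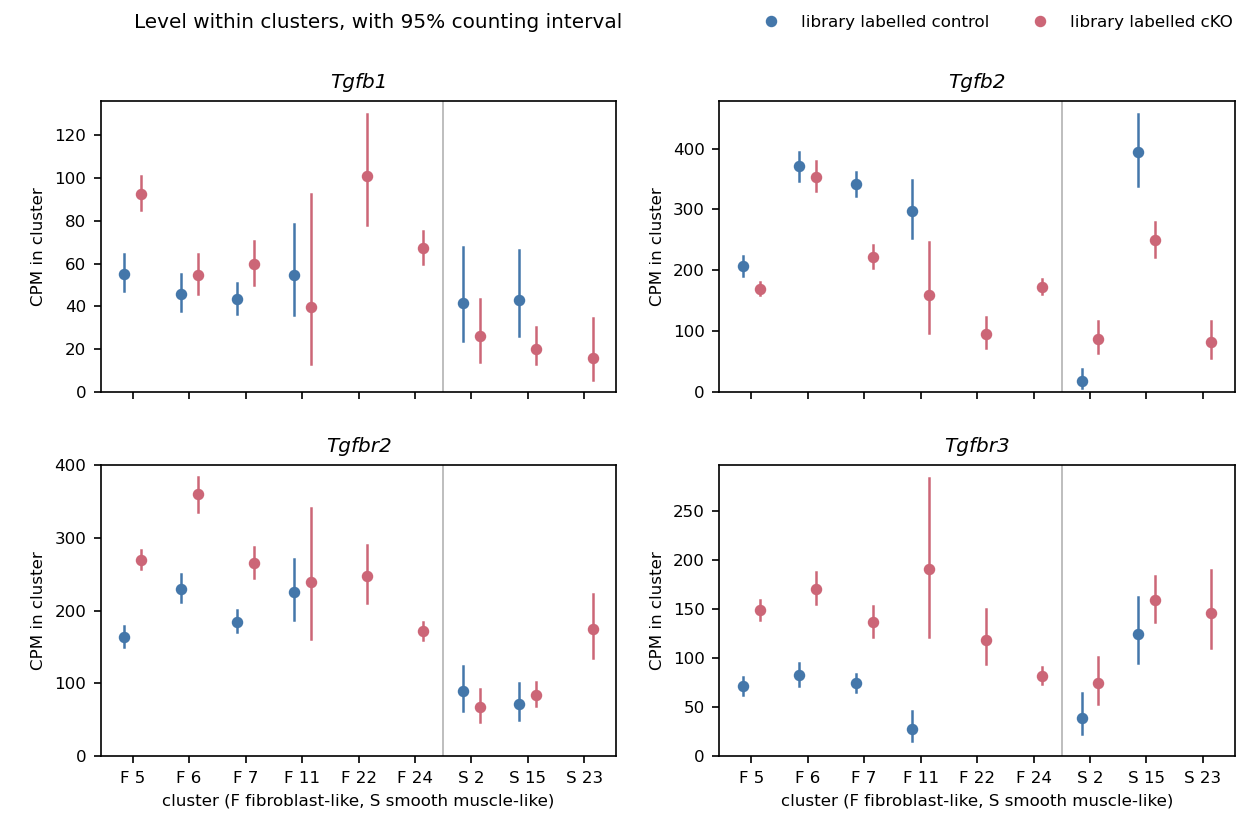
Level (vertical axis, CPM) of 4 genes in the fibroblast-like (F) and smooth muscle-like (S) clusters, with 95% counting intervals, blue for the control-labelled library and red for the cKO-labelled library. Clusters with under 20 cells in a library have no point for it. Tgfbr3 is higher in red in every pair, and Tgfb2 lower in red in every pair except S 2.

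The other genes of the pathway were followed in 3 lists. Among all genes of fibroblast-like cells 8.39% were past the fold, with a median log2 ratio of 0.10. Of 15 genes of signalling and coreceptors, 14 reached 10 CPM in these cells and 0 were past the fold in either direction, the median being 0.12. The highest were Pmepa1, a feedback inhibitor (623 and 916 CPM, 0.55), and Skil, a SMAD corepressor (202 and 276 CPM, 0.44), and the lowest Acvrl1 (-0.53) and Smad3 (-0.21). Among all genes of smooth muscle-like cells 27.4% were past the fold, with a median of 0.21. Of the list, 13 reached 10 CPM there and again 0 were past the fold, the median being 0.25. Smad6 at 0.56 and Smad2 at 0.55 were highest and Smurf2 at -0.26 and Smurf1 at -0.22 lowest. Of the SMAD proteins named here, SMAD2 and SMAD3 carry the signal, and the SMURF enzymes mark receptors for destruction.

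In fibroblast-like cells 5.49% of all genes were past the fold upwards and 2.90% downwards, with a median log2 ratio of 0.10. Of 17 genes that activate or anchor latent complexes, 13 reached 10 CPM in these cells. Of those, 5 were past the fold upwards and 1 downwards, the median being 0.09. The highest were Itgb3, the beta chain of an integrin that binds latent TGF-beta (336 and 1735 UMIs, 35.0 and 108 CPM, 1.49), and Fn1, fibronectin (264 and 574 CPM, 1.11). Itgb8, Fbn1 and Itgb5 were the other 3, with 0.94, 0.70 and 0.63. The gene past the fold downwards was Mmp2, a matrix protease (503 and 300 CPM, -0.74), and Emilin1, an inhibitor of ligand processing, had -0.39. With only clusters not drawn over 90% from 1 library, 3 genes of this list were past the fold, and by the mean within clusters 1. In smooth muscle-like cells 13 reached 10 CPM, of which Itgb8 (14 and 98 UMIs, 1.38) and Fbn2 (6 and 31 UMIs, 0.80) were past the fold upwards and Fbn1 (-0.73) downwards, where 19.1% of all genes in the class were past the fold upwards and 8.35% downwards.

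Beside the same all-gene shares of fibroblast-like cells (5.49% upwards, 2.90% downwards, median 0.10) stand 17 genes known to be induced by TGF-beta. Of these, 14 reached 10 CPM in fibroblast-like cells, and 4 were past the fold upwards and none downwards, with a median of 0.22. They were Fn1 (1.11), the matrix glycoproteins Tnc (195 and 356 CPM, 0.85) and Tgfbi (65.5 and 117 CPM, 0.79), and Ccn2 (254 and 426 CPM, 0.73). The lowest was Col1a2, a collagen gene, at -0.31. By the mean within clusters 1 gene of the list was past the fold upwards and 3 downwards. In smooth muscle-like cells 19.1% of all genes were past the fold upwards and 8.35% downwards, with a median of 0.21. Of the list, 15 reached 10 CPM there, and the direction was mostly the other way. Past the fold were 1 higher (Postn, periostin, 227 and 379 CPM, 0.73) and 6 lower, among them Col3a1 (125 and 54.5 CPM, -1.13) and Col1a2 (266 and 130 CPM, -1.01). The median of the list was -0.19. The 6 lower genes included 3 fibrillar collagen genes. Fibroblast markers summed to 651 and 445 CPM in the same cells, and their part in these values was not tested. When each cell was thinned to 1000 UMIs, 4 genes of the list were higher and 3 lower.

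Immune and epithelium-like cells are given more briefly. In T or NK cell-like cells 5 of the 10 genes reached 10 CPM and 1 was past the fold, Tgfbr1, with 62 and 179 UMIs, 33.9 and 55.0 CPM and a log2 ratio of 0.62, where 13.1% of genes were past the fold (7.22% higher and 5.88% lower). Tgfb1 and Tgfbr2 each had 0.36 there. Of the induced list, 6 of 10 genes at 10 CPM were past the fold upwards in these cells, led by Ccn2 (23.0 and 109 CPM, 2.03) and Col1a2 (15.3 and 65.2 CPM, 1.79). That count fell to 2 without the highest Scrublet scores, to 2 with 1 gene lower at clustering resolution 2.0, and to 3 when cells were thinned. Fibroblast markers summed to 331 and 330 CPM in T or NK cell-like cells, smooth muscle markers to 77.1 and 161, and erythroid markers to 10.4 and 1458. The part of such RNA in these values was not tested.

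In macrophage or monocyte-like cells 8 genes reached 10 CPM, and Ltbp4 (24.8 and 43.1 CPM, 0.69) and Ltbp3 (6.93 and 13.6 CPM, 0.64) were past the fold upwards and Tgfb2 (28.5 and 14.8 CPM, -0.76) downwards, where 14.8% of genes were past the fold (7.87% higher and 6.91% lower). These 3 genes lay under the empty droplets in both libraries (59.3 and 93.2 CPM of Ltbp4, 18.2 and 22.9 of Ltbp3, 39.2 and 66.0 of Tgfb2). With 10% of that profile subtracted they stayed past the fold, at 0.71, 0.72 and -1.19. Fibroblast markers in the class summed to 856 and 835 CPM and erythroid markers to 7.30 and 1375, and their part was not tested. Both kinase receptors had a log2 ratio of 0.54. In dendritic cell-like cells 6 reached 10 CPM and 3 were past the fold upwards, where 25.2% of genes were (17.7% higher and 7.48% lower). They were Tgfb2 (3 and 22 UMIs, 1.29), Ltbp4 (15 and 35 UMIs, 0.75) and Ltbp1 (11 and 24 UMIs, 0.61). Cluster 21 held 31.8% of the class's cells in the control-labelled library and 0.962% in the other. In cluster 17, the only 1 with at least 20 cells in both libraries, Tgfb2 had 1.14. Ltbp4 (0.48, ratio interval 0.816 to 3.13) and Ltbp1 (0.58, 0.811 to 4.81) were inside the fold there. The class counts are small, and the same 3 genes lay between 164 and 387 CPM in fibroblast-like cells. Fibroblast markers in dendritic cell-like cells summed to 131 and 276 CPM, and the 3 genes lay under the empty droplets there too. With 10% of the empty-droplet profile subtracted none of the 3 reached 10 CPM, so that they gave no ratio. Tgfb2 was past the fold in 8 of the 8 alternatives that gave it a value (1.14 to 2.17).

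In epithelium-like cells 8 genes reached 10 CPM, 3 past the fold upwards and 2 downwards, where 46.0% of all genes were past the fold (32.0% higher and 14.1% lower). Tgfbr2 was lower, with 2725 and 90 UMIs, 144 and 66.7 CPM and a log2 ratio of -1.06, and it was lower in both clusters found in each library, at 129 and 71.1 CPM in cluster 0 and 97.0 and 63.7 in cluster 9. Tgfb1 had -0.66 (498 and 20 UMIs). Within those clusters Tgfb1 was lower but inside the fold. The log2 ratio was -0.58 in cluster 0 (ratio interval 0.284 to 1.23) and -0.27 in cluster 9 (0.350 to 1.50). Ltbp3 (5.29 and 25.2 CPM, 1.55), Ltbp4 (3.55 and 11.9 CPM, 0.98) and Ltbp1 (17.0 and 30.4 CPM, 0.69) were higher. Ltbp3 and Ltbp1 were higher in both of those clusters, whereas Ltbp4 was higher in cluster 0 (14 and 15 UMIs, 2.61) and had -0.38 in cluster 9 (14 and 1 UMI). The class levels of Ltbp4 and Ltbp1 lay under the empty droplets in both libraries. Different clusters held most of this class: cluster 8 held 53.3% of its UMIs in the control-labelled library and 1.26% in the cKO-labelled library, and cluster 9 held 26.4% and 75.7%. Smooth muscle markers in the class summed to 71.0 and 271 CPM, and their part was not tested.

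Over 15 sums of class and library with at least 50 cells, the genes whose log2 levels were most like each member, of 10434 genes, are a description and share library and depth. They were Crlf2, Ppp1r9b and Fli1 for Tgfb1 (Pearson r of Crlf2 0.923) and Srm, Gspt1 and Mb21d2 for Tgfb2 (Srm 0.961). For Tgfbr3 they were Tram2, Pcsk5 and Tsr2 (Tram2 0.971), and for Tgfbr1 and Tgfbr2 the nearest were Rxra (0.935) and Eif4g3 (0.879). For the latency proteins the nearest were Il17d for Ltbp1 (0.951), Fmod for Ltbp2 (0.933), Slc25a15 for Ltbp3 (0.974) and Adamtsl1 for Ltbp4 (0.969), and Mpp6 for Tgfb3 (0.859).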

How the data were processed

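Whole uterus was profiled with a 10x kit that reads transcripts from the 3-prime end, per the labels' protocols. The authors deposited unfiltered, unnormalized UMI counts per gene and barcode. The submitters' processing notes name Cell Ranger 6.1.1 and mm10, whereas the file headers name Cell Ranger 4. Barcodes with at least 1000 UMIs, 500 genes and at most 20% mitochondrial UMIs were kept as cells. They were clustered jointly with scanpy 1.11.5 (2000 variable genes, the members and pathway lists left out, 30 components, 15 neighbours, Leiden resolution 1). Batch was not corrected, since each group is 1 library. Clusters were named X-like from at least 3 detected markers, and 2 clusters (13 and 19) stayed unnamed. Scrublet marked 4 cells (0.0565%) and so did not work, and doublets remain.

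Counts were summed per class and library and scaled to CPM, and log2 ratios used a pseudocount of 5 CPM, which understates the change of low genes. Classes with 100 cells in both libraries were compared, on genes with 10 CPM in either. Intervals are exact Poisson (levels), exact conditional (ratios) and exact binomial, from scipy 1.17.1. Empty droplets had at most 100 UMIs. The ratio script was tested on simulated data. Named genes were all 10 members, the 2 highest and 2 lowest of each pathway list per class, and the 3 genes most like each member. Further list genes past the fold, the cell class clusters and their leading genes were picked out after their values were seen. The members and lists were chosen with earlier results of these data known. With 1 library per group and nothing to test, alternatives changed scaling, pseudocount, minimum level, mitochondrial limit, clustering, depth, free RNA, clusters and doublets.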

Additional observations from a re-analysis of the deposited data

Results flagged for a closer look

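The difference between the libraries lay in opposite directions in some pairs of cell classes, past 1.5-fold in both and with counting intervals that leave out a ratio of 1. For Tgfb1 the log2 ratio was 0.60 in fibroblast-like cells and -0.80 in smooth muscle-like cells, a gap of 1.40, and -0.66 in epithelium-like cells, a gap of 1.26. By the mean within clusters it was 0.23 in fibroblast-like and -0.76 in smooth muscle-like cells. In epithelium-like clusters 0 (-0.58) and 9 (-0.27) it was inside the fold, with intervals that include a ratio of 1. The Tgfb1 levels in fibroblast-like (48.0 and 75.1 CPM), smooth muscle-like (40.3 and 21.0) and epithelium-like cells (26.4 and 14.8) all lay under those of the empty droplets (70.2 and 120 CPM). For Tgfb2 the log2 ratio was 1.29 in dendritic cell-like cells (3 and 22 UMIs, in 3 and 6 cells). It was -0.76 in macrophage or monocyte-like cells (78 and 25 UMIs, in 14 and 8 cells), a gap of 2.05. The counting intervals take UMIs as independent and do not cover such clumping in few cells. Its levels in both classes lay under the empty droplets (39.2 and 66.0 CPM). These differences were not tested, since each group is 1 library.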

How the results depend on the processing

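No paired analysis was possible because each group is 1 library. No member past the fold as reported changed sign under the alternatives that gave it a value. Settings that left a gene under 10 CPM gave none, and some of those levels lay the other way. Thinned, Tgfb2 in dendritic cell-like cells had 6.37 and 0 CPM, and Ltbp3 in macrophage or monocyte-like cells 6.37 and 4.39. Tgfb2 in smooth muscle-like cells, inside the fold at -0.26, was 0.67 by the mean within clusters and 0.11 when thinned. Tgfb2 in epithelium-like cells, inside the fold at 0.13, kept its direction in 7 of 12 alternatives and was lowest, at -0.63, when thinned. Tgfbr3 in fibroblast-like cells and Tgfb1 in smooth muscle-like cells stayed past the fold in 12 of 12 alternatives (log2 ratios 0.71 to 1.37 and -1.48 to -0.76), Tgfbr3 in smooth muscle-like cells in 10 of 12 and Tgfb1 in fibroblast-like cells in 8 of 12. Tgfb2 was lower in fibroblast-like cells in 12 of 12 (-0.64 to -0.44).

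The number of members past the fold moved in the cases below among others, so the list is not complete. Where the setting's own construction does not show it the cause was not tested. Among moves not in the list, Tgfb2 in fibroblast-like cells, inside the fold as reported, was past it in 2 of 12 alternatives. In smooth muscle-like cells Tgfb2 passed the fold upwards by the mean within clusters (0.67). With the median of ratios it was 1 in smooth muscle-like and 0 in T or NK cell-like cells. At resolution 2.0 it was 1 in fibroblast-like and 0 in T or NK cell-like cells. With 10% of the empty-droplet profile subtracted it was 1 in fibroblast-like, 5 in macrophage or monocyte-like, 0 in dendritic cell-like (where the 3 genes fell under 10 CPM) and 2 in T or NK cell-like cells, and with 5% it was 2 in T or NK cell-like cells. By the mean within clusters it was 1 in fibroblast-like and 1 in dendritic cell-like cells. Without clusters over 90% from 1 library it was 2 in epithelium-like and 1 in dendritic cell-like cells, and the fibroblast-like median was 0.36. Thinned to 1000 UMIs it was 3 in epithelium-like cells, without a minimum level 5 in macrophage or monocyte-like cells, and without the highest Scrublet scores 0 in dendritic cell-like cells.

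The same alternatives for the pathway lists were chosen after seeing the data. Signalling genes past the fold, 0 in both classes as reported, numbered in smooth muscle-like cells 2 with a pseudocount of 1 CPM, 5 thinned, 4 by the mean within clusters and 1 with 10% or 5% subtracted or without the highest Scrublet scores. In fibroblast-like cells they numbered 4 thinned, 2 without clusters over 90% from 1 library and 1 with the median of ratios, a pseudocount of 1 CPM or the mean within clusters. The activation list gave 5 in smooth muscle-like cells with no minimum level, and in fibroblast-like cells 3 without those clusters and 1 by the mean within clusters. The induced list gave 8 in fibroblast-like cells when thinned. Intervals cover counting error only.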

Other observations

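Fn1, fibronectin, to which latent complexes bind, was picked out here after its values were seen. It was higher in the cKO-labelled library past 1.5-fold in 4 of 6 classes: 12.4 and 416 CPM in epithelium-like cells (log2 ratio 4.59), 264 and 574 in fibroblast-like cells (1.11), 51.1 and 109 in macrophage or monocyte-like cells (1.02) and 9.44 and 83.2 in dendritic cell-like cells (2.61). In smooth muscle-like cells it had 442 and 462 CPM (0.06) and in T or NK cell-like cells 10.9 and 12.0 (0.09). Past the fold upwards were 32.0% of all genes in epithelium-like and 17.7% in dendritic cell-like cells. The share was 7.87% for macrophage or monocyte-like and 5.49% for fibroblast-like cells. Cluster 8 held 53.3% of epithelium-like UMIs in the control-labelled library and cluster 9 75.7% in the other. Fibroblast markers summed to 131 and 276 CPM in dendritic cell-like cells and 856 and 835 in macrophage or monocyte-like cells. The part of either in these ratios was not tested.

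Over all cells, without regard to class, Tgfbr3 had 992 and 2632 UMIs, 26.4 and 89.6 CPM and a ratio of 3.39 (3.15 to 3.65), where the ratio within fibroblast-like cells was 1.80. Fibroblast-like cells made up 24.4% of the cells in the control-labelled library and 37.4% in the cKO-labelled library. Of all UMIs in cells they held 9590041 of 37537472 and 16117292 of 29358750. Epithelium-like cells, with 0.582 and 5.19 CPM of Tgfbr3, held 18898632 and 1349149. Smooth muscle-like cells made up 8.94% and 19.0% of the cells.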
